A study of Homo sapiens with 2 samples.

Results

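The genes that load, start and run the DNA replication fork were followed in 293T cells given the ROCK inhibitor Y27632. They comprise the origin recognition complex, licensing factors, MCM helicase, replicative polymerases, sliding clamp and its loader, single-strand binding proteins, flap and nick enzymes and ribonucleotide reductase. Members were chosen by symbol, counting older names, from a fixed list of 50 genes, and 43 of them had a value. These 43 are of 11057 named genes with a value on either array. All 43 were measured on both arrays, 10 of them through an older symbol. The other 7, GINS1, GINS2, GINS3, GINS4, CDC6, CDT1 and DBF4, were not named for any probe by the platform annotation and are not analysed here.

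293T is an established human embryonic kidney cell line that carries the SV40 large T antigen. The groups were cells exposed to 10 µM Y27632 for 6 h, cells exposed to the same dose for 3 h, and cells given no agent, assigned a time of 0 h. There was 1 dual-colour array per time, with the treated cells labelled with Cy3 and the untreated cells with Cy5 on each. The title of each array carries the word control, and the treatment is read from the source name of the treated channel. No dye was swapped, no vehicle is named for the untreated cells, and whether 1 control RNA served both arrays is not stated. Effects of the inhibitor cannot be told apart from those of time in culture, handling, vehicle or dye. With no replicate array, no value has a p-value, and both comparisons may share their control.

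Each deposited value is a log ratio of the 2 channels, read here in base 2. Which channel is on top is not given in the sources used here, so signs are those of the deposited values and no gene is said to be higher or lower in treated cells. If the ratio is control over treated, every sign below is exchanged and every size stays. The only error available for 1 gene is the spread between probes of the same gene, whose SD over 572 genes with several probes was 0.33 at 6 h and 0.31 at 3 h. It does not cover the spread between cultures. Ratios carry no expression level, so levels of these genes, and the kidney identity of the cells, could not be checked from them. In a bulk ratio, a different number of cells in S phase and a different amount of RNA per cell cannot be told apart.

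As background, replication starts when the origin recognition complex marks origins in G1 and, with CDC6 and CDT1, loads the MCM helicase as an inactive double ring. In S phase, the kinase CDC7 with DBF4 and the factors CDC45 and GINS turn the rings into moving forks, where polymerase alpha with primase begins each strand and polymerases epsilon and delta extend the leading and lagging strands on the clamp PCNA. Many of these genes are transcribed at the G1/S boundary under E2F factors, which RB restrains. The large T antigen in 293T cells binds RB.

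The replication genes lay mostly on the positive side of the ratio, by small amounts. Their median log ratio was 0.14 at 6 h, beside 0.02 over all named genes, and 32 of 43 were positive (74.4%), beside 51.5% of all named genes. At 3 h the median was 0.19, again beside 0.02, and 37 of 43 were positive (86%), beside 51.3%. The members were less spread than genes at large, with an SD over genes of 0.22 at 6 h and 0.20 at 3 h, beside 0.36 on each array. The values ranged between −0.25 and 0.65 at 6 h and between −0.29 and 0.62 at 3 h.

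Few members were large in size. At 6 h, 3 of 43 (6.98%) were at least 1.5-fold from 0 (0.585 log2 units) on the positive side, where 5.63% of all named genes were called, and 0 on the negative side, where 4.24% were called. At 3 h, 1 of 43 (2.33%) was past this size on the positive side, where 4.88% of all genes were called, and 0 on the negative side, where 4.49% were called. The members' count past 1.5-fold was thus near the background on the positive side. At 2-fold, 0 members were past the size on either array, where 0.7% of all genes were positive and 0.728% negative at 6 h, and 0.657% positive and 0.953% negative at 3 h. Against the smaller yardstick of the probe SD, 9 of 43 lay farther out on the positive side at 6 h (20.9%, beside 17.4% of all genes) and 16 of 43 at 3 h (37.2%, beside 18.5%). On the negative side 0 members passed it, where 13% of all genes did at 6 h and 14.5% at 3 h. The positive values were unevenly spread over the roles at 6 h. The origin recognition genes had a median of 0.43, the clamp and loader genes 0.23 and the MCM relatives 0.23. GMNN, the only licensing gene measured, had 0.51. The lowest medians were those of polymerase delta at −0.01, ribonucleotide reductase at 0.03, polymerase epsilon at 0.04 and the MCM helicase at 0.06. At 3 h the origin recognition median of 0.37 lay near that of the MCM relatives, 0.34, and of primase and polymerase alpha, 0.33.

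**Figure D1:**
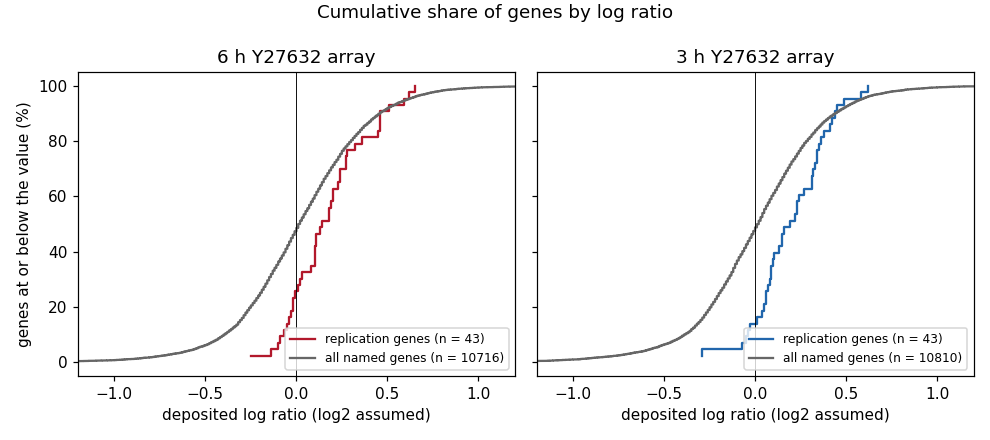
Cumulative share of genes (y axis, percent) by deposited log ratio (x axis, log2 assumed), for the 43 replication genes (coloured step) and all named genes (grey), at 6 h on the left and 3 h on the right. The coloured step starts at −0.25 at 6 h and −0.29 at 3 h, and a start farther to the right goes with a smaller set. Its median is 0.14 at 6 h and 0.19 at 3 h, beside 0.02 for the grey curve on each array. The curves meet near the upper end.

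The origin recognition complex held the members farthest from 0. ORC1, the ATPase subunit that recruits CDC6, had 0.62 at 6 h and 0.62 at 3 h, a 1.54-fold size on each array, and such a value or a higher one was held by 4.85% of all named genes at 6 h and 4.1% at 3 h. ORC6 had 0.59 at 6 h and 0.58 at 3 h, so that it stood just inside the 1.5-fold size at 6 h and just outside it at 3 h. ORC4, another subunit of the AAA+ family, had 0.65 at 6 h and 0.36 at 3 h. These 3 genes were all of the members past 1.5-fold at 6 h, and GMNN at 0.51 was the nearest outside it. ORC2 had 0.27 at 6 h and 0.19 at 3 h, and ORC3 had 0.24 at 6 h and 0.38 at 3 h. ORC5 had 0.27 at 6 h and −0.07 at 3 h, the 1 value of this complex below 0. The group's median was 0.43 at 6 h, with 6 of 6 positive, and 0.37 at 3 h, with 5 of 6 positive. Without these 6 genes the other 37 had a median of 0.11 at 6 h and of 0.15 at 3 h, and 26 were positive at 6 h and 32 at 3 h. Each subunit was read by 1 probe, so each value carries the full probe SD.

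The promoters of the 3 genes past 1.5-fold are shown as the RefSeq table of GRCh38.p14 gives them, first window listed per gene, 5′ to 3′, with 250 bases before the transcription start and 50 after it. Capitals mark motif letters found on either strand: the E2F motif (TTTGGCGC, TTTCCCGC, TTTGCCGC or TTTCGCGC), the CHR element (TTTGAA) and the CCAAT box (CCAAT).
ORC1 (chr1:52404374-52404673, - strand): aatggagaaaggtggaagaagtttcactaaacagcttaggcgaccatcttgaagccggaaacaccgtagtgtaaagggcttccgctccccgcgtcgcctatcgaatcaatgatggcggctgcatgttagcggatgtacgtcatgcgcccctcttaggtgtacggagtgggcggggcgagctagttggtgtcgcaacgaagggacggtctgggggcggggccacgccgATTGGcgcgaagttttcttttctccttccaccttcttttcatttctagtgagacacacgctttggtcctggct
ORC4 (chr2:148021502-148021801, - strand): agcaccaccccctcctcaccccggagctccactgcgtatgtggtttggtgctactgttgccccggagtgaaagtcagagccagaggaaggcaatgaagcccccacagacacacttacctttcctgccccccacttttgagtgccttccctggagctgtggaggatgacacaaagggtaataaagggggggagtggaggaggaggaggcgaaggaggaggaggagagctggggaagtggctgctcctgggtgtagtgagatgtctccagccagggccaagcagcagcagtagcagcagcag
ORC6 (chr16:46689409-46689708, + strand): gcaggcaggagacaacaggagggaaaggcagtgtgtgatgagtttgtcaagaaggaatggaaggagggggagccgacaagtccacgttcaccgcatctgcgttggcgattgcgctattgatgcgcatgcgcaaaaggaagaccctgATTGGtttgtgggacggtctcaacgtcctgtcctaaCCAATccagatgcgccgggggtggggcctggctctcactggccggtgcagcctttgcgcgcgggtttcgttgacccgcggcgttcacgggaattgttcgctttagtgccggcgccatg

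Of these windows, that of ORC1 held 1 CCAAT box and that of ORC6 held 2, one in each orientation. The ORC4 window held none of the motifs, and none of the 3 windows held the exact E2F letters searched. The ORC1 window held ATTGGCGC, which differs by 1 base from TTTGGCGC and was not counted.

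Of the licensing factors, only GMNN was measured. It encodes geminin, which binds CDT1 and blocks a second round of loading, and it had 0.51 at 6 h and 0.45 at 3 h. The MCM helicase genes lay closer to 0. MCM3 had 0.20 at 6 h and 0.15 at 3 h, and was the only helicase gene with the higher value at 6 h. MCM4 had 0.11 at 6 h and 0.27 at 3 h. MCM5 had 0.02 at 6 h and 0.24 at 3 h. MCM6 had 0.10 at 6 h and 0.16 at 3 h. These 4 genes, each encoding 1 subunit of the ring, were positive on both arrays. MCM2, which also carries a histone-binding tail, had −0.14 at 6 h and 0.01 at 3 h. MCM7 was the 1 member with 2 probes, with ratios of −0.05 and −0.13 at 6 h and 0.15 and 0.06 at 3 h. These 2 probes had the same sign on each array and lay closer to each other than the probe SD. At 6 h, 4 of the 6 helicase genes were positive, with a median of 0.06, and at 3 h all 6 were, with a median of 0.16.

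The MCM relatives are MCM8, MCM9 and MCM10. MCM8 and MCM9, which form a complex used in homologous recombination, were both positive. MCM8 had 0.18 at 6 h and 0.44 at 3 h, and MCM9 had 0.24 at 6 h and 0.34 at 3 h. MCM10, which helps activate the assembled helicase, had 0.23 on both arrays. All 3 were positive on both arrays. Of the origin-firing genes, CDC7, the kinase that phosphorylates the MCM ring, had 0.32 on both arrays, while the helicase cofactor gene CDC45 had −0.02 at 6 h and 0.04 at 3 h, and both CDC45 values lay near 0.

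**Figure D2:**
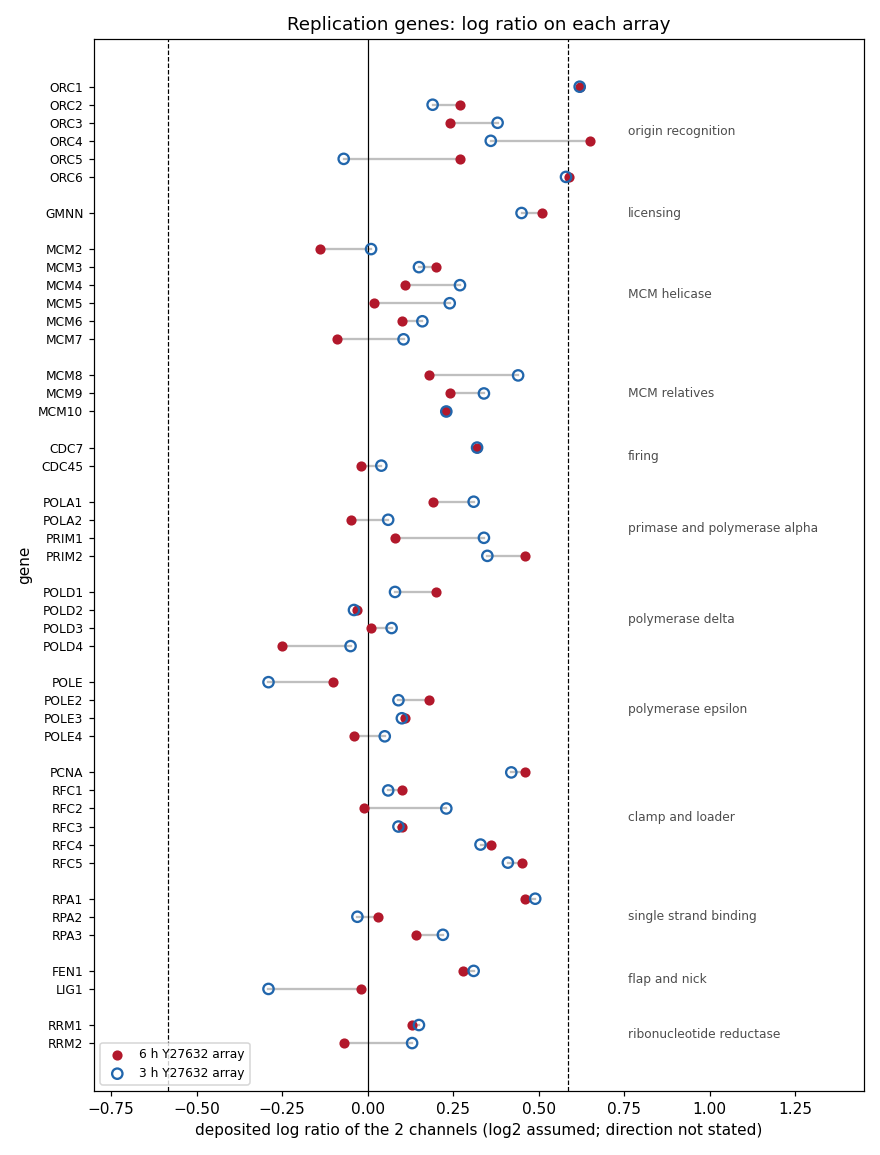
Deposited log ratio (x axis, log2 assumed, direction not stated) of the 43 measured replication genes (y axis), grouped by role, with filled circles for the 6 h array and open circles for the 3 h array. The grey line joins both values of a gene and the dashed lines mark 1.5-fold. ORC1, ORC4 and ORC6 reach the right dashed line at 6 h, and no gene reaches the left one.

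The priming enzyme joins primase to polymerase alpha. PRIM2, the large primase subunit, had 0.46 at 6 h and 0.35 at 3 h, and PRIM1, the catalytic one, had 0.08 at 6 h and 0.34 at 3 h. POLA1, the catalytic subunit of polymerase alpha, had 0.19 at 6 h and 0.31 at 3 h, and its partner POLA2 had −0.05 at 6 h and 0.06 at 3 h. The group's median was 0.14 at 6 h and 0.33 at 3 h. With current symbols only, which leaves out POLA1 and PRIM2, the 6 h median was 0.02, so no order among the polymerases is drawn from it. In polymerase delta, which extends the lagging strand, the catalytic subunit gene POLD1 had 0.20 at 6 h and 0.08 at 3 h. Of its accessory subunits, POLD2 had −0.03 at 6 h and −0.04 at 3 h, POLD3 had 0.01 at 6 h and 0.07 at 3 h, and POLD4 had −0.25 at 6 h and −0.05 at 3 h. Its median was −0.01 at 6 h and 0.02 at 3 h, and 2 of 4 were positive on each array. Polymerase epsilon had a median of 0.04 at 6 h and of 0.07 at 3 h. Its catalytic subunit gene POLE had −0.10 at 6 h and −0.29 at 3 h, and its second subunit gene POLE2 had 0.18 at 6 h and 0.09 at 3 h. Of the histone-fold subunit genes, POLE3 had 0.11 at 6 h and 0.10 at 3 h, and POLE4 had −0.04 at 6 h and 0.05 at 3 h. All of the delta and epsilon values were within the probe SD of 0.

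The clamp PCNA, which holds polymerases on DNA, had 0.46 at 6 h and 0.42 at 3 h. Of the loader subunits that open and close it, RFC5 had 0.45 at 6 h and 0.41 at 3 h, and RFC4 had 0.36 at 6 h and 0.33 at 3 h. The large subunit gene RFC1 had 0.10 at 6 h and 0.06 at 3 h, and RFC3 had 0.10 at 6 h and 0.09 at 3 h, so that these genes hardly differed between the arrays. RFC2 differed from these, with −0.01 at 6 h and 0.23 at 3 h. The clamp and loader group had a median of 0.23 at 6 h and of 0.28 at 3 h. In the trimer that coats single strands, RPA1 had 0.46 at 6 h and 0.49 at 3 h, RPA3 had 0.14 at 6 h and 0.22 at 3 h, and RPA2 had 0.03 at 6 h and −0.03 at 3 h. The subunits of 1 complex thus did not share 1 value, and differed by amounts of the order of the probe SD.

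The genes that finish Okazaki fragments had unlike values. FEN1, the flap nuclease, had 0.28 at 6 h and 0.31 at 3 h, while LIG1, the ligase that seals the nick, had −0.02 at 6 h and −0.29 at 3 h. LIG1 and POLE shared the lowest 3 h value of the group, and POLD4 had the lowest 6 h value. In ribonucleotide reductase, which makes the deoxyribonucleotides, the large subunit gene RRM1 had 0.13 at 6 h and 0.15 at 3 h, and the small subunit gene RRM2 had −0.07 at 6 h and 0.13 at 3 h.

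The promoters of these lowest members are shown beside those of the ORC genes, with the same capitals.
POLD4 (chr11:67353547-67353846, - strand): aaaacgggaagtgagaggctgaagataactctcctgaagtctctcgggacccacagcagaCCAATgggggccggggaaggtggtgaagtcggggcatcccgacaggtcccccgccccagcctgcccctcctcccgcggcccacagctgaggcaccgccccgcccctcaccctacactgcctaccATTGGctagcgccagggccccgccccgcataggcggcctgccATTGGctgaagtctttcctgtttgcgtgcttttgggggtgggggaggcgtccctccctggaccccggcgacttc
POLE (chr12:132687293-132687592, - strand): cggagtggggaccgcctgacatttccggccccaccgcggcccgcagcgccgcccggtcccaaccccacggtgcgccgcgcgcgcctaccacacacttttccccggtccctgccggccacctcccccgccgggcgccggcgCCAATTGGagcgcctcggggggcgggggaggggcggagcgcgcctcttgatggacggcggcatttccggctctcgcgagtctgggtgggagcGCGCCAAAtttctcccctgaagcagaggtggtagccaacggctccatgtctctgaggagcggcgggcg
LIG1 (chr19:48170295-48170594, - strand): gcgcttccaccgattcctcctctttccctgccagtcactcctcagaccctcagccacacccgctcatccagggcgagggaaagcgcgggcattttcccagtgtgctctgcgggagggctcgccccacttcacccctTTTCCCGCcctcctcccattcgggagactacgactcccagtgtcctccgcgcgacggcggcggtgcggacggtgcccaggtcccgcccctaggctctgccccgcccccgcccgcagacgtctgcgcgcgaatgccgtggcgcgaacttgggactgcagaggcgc

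The LIG1 window held the E2F letters TTTCCCGC, starting 114 bases before the transcription start. The POLE window held the reverse complement of TTTGGCGC, and a pair of CCAAT boxes in opposite orientation that overlap each other. The POLD4 window held 3 CCAAT boxes and no E2F motif.

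Over all 38 members with a window in the table, 14 (36.8%) held an E2F motif, beside 4.54% of 8872 array genes and 3.33% of 27305 promoters. A CCAAT box was in 23 (60.5%), beside 36.6% of array genes and 35.7% of all promoters, and the CHR element in 1 (2.63%), that of RRM1, beside 10.6% and 15.4%. The median GC content was 64.8% for the members and 64% for array genes. The 14 members with the E2F letters had a median log ratio of 0.10 on each array, and the 24 without them had 0.26 at 6 h and 0.27 at 3 h. Over array genes the order was the other way round, at 0.08 at 6 h and 0.10 at 3 h with the motif and 0.02 on both arrays without it. Among the members, ORC1, ORC4 and ORC6, the farthest from 0 at 6 h, lacked the letters. ORC2 and ORC5 lacked them too, while ORC3 held them. The medians by motif were not taken without the ORC genes. A match is a description of these letters in this window and says nothing of the factor. Only exact letters were searched, so a member without a match may still hold an E2F site.

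Between the times, the members differed little. The difference of the log ratios, 6 h minus 3 h, had a median of 0 over the 43 genes, beside −0.01 over 10469 named genes, with 19 positive, 21 negative and 3 at exactly 0. None was past 1.5-fold, where 3.05% of all genes were called positive and 2.7% negative. In 25 of 43 members (58.1%) the difference was at most 0.1 in size, beside 41.7% of all genes. The differences ranged between −0.26, for MCM8 and PRIM1, and 0.34, for ORC5, followed by 0.29 for ORC4 and 0.27 for LIG1. Of the 6 helicase genes, 5 had a negative difference, with a median of −0.16, and MCM3 at 0.05 was the exception. The clamp and loader genes had positive differences of at most 0.04, apart from RFC2 at −0.24. With 1 array per time, time and array cannot be told apart, and no difference could be tested.

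**Figure D3:**
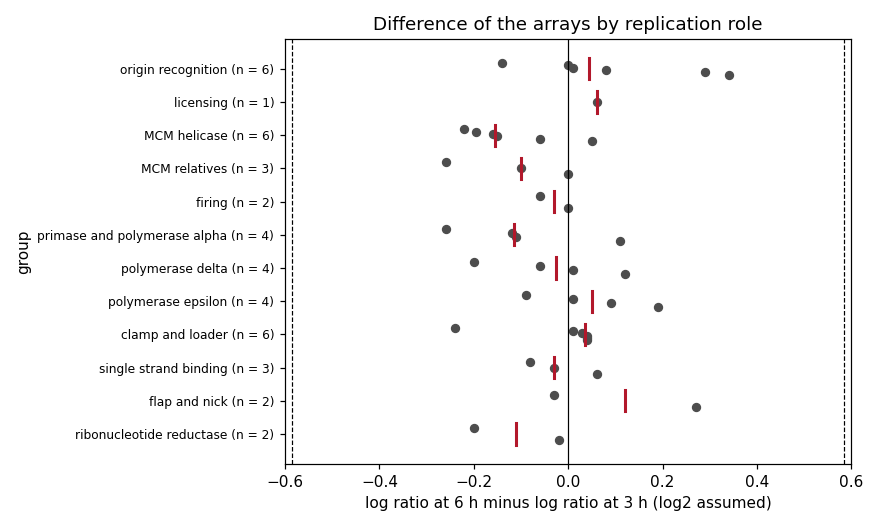
Log ratio at 6 h minus log ratio at 3 h (x axis, log2 assumed) for each replication gene (grey point), grouped by role (y axis, with the number of genes), with the group median as a red bar and 1.5-fold as dashed lines. The helicase genes sit mostly left of 0, with a median of −0.16, and no point reaches a dashed line.

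Other genes of the pathway were taken from 7 lists, and each count is over the list genes that had a value. Closest in role were partners of origin firing and fork protection, of which 14 of 21 were measured. All 14 were positive at 6 h, with a median of 0.36, and all 14 at 3 h, with a median of 0.34. MTBP, which helps fire origins with treslin, had 0.69 at 6 h and 0.41 at 3 h, and WDHD1, which couples polymerase alpha to the helicase, had 0.54 at 6 h and 0.71 at 3 h. At the low end, RECQL4 had 0.08 at 6 h and 0.03 at 3 h and TIMELESS, of the fork protection complex, had 0.09 at 6 h and 0.17 at 3 h. Of the genes of Okazaki processing, topoisomerases and chromatin assembly, 15 of 21 were measured. Their median was 0.14 at 6 h and 0.18 at 3 h, with 12 of 15 positive at 6 h and 13 at 3 h. ASF1A, a histone chaperone, had 1.12 at 6 h and 0.90 at 3 h and the nuclease gene DNA2 had 0.65 at 6 h and 0.51 at 3 h, while NASP had −0.04 at 6 h and 0.18 at 3 h and CHTF18 had 0 at 6 h and 0.03 at 3 h.

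Nucleotide supply and G1/S lists did not share the positive side. Nucleotide supply genes had a median of −0.05 at 6 h and of 0.02 at 3 h, with 7 of 16 positive at 6 h and 9 at 3 h. DUT, which removes dUTP, had 0.49 at 6 h and 0.51 at 3 h and SAMHD1, which degrades deoxyribonucleotides, had 0.39 at 6 h and 0.51 at 3 h. The mitochondrial nucleoside kinase genes were negative, with TK2 at −0.53 at 6 h and −0.35 at 3 h and DGUOK at −0.30 at 6 h and −0.20 at 3 h. G1/S and E2F genes had a median of 0.02 at 6 h and of 0 at 3 h, with 14 of 27 positive at 6 h and 13 at 3 h. The cyclin gene CCNE2 had 0.54 at 6 h and 0.37 at 3 h, E2F3 had 0.35 at 6 h and 0.28 at 3 h, CCND1 had −0.37 at 6 h and −0.34 at 3 h, and the CDK inhibitor gene CDKN1C had −0.57 at 6 h and −0.60 at 3 h.

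Of the list of ubiquitin ligase and related genes around licensing, 9 of 17 were measured. Their median was 0.23 at 6 h and 0.28 at 3 h, with 8 of 9 positive at 6 h and 7 at 3 h. CUL4A, the scaffold of the ligase that destroys CDT1, had 0.52 at 6 h and 0.35 at 3 h, FBXW7, which targets cyclin E, had 0.52 at 6 h and 0.66 at 3 h, VCP had 0.03 at 6 h and −0.02 at 3 h, and DDB1 had −0.07 at 6 h and −0.12 at 3 h. Other DNA polymerases had a median of 0.13 at 6 h and of 0.03 at 3 h, with 9 of 13 positive at 6 h and 7 at 3 h. POLQ had 0.38 at 6 h and 0.24 at 3 h, POLK had 0.30 at 6 h and −0.06 at 3 h, POLN had −0.04 at 6 h and 0.05 at 3 h, and POLL had −0.15 at 6 h and −0.25 at 3 h. Mitosis genes, which are used later in the cycle, had a median of 0.42 at 6 h and of 0.22 at 3 h, with 15 of 20 positive at 6 h and 16 at 3 h. NUF2 had 1.33 at 6 h and 1.12 at 3 h and CDC25C had 1.31 at 6 h and 0.69 at 3 h, while PLK1 had −0.29 at 6 h and −0.11 at 3 h and AURKB had −0.15 at 6 h and −0.17 at 3 h. A positive median was thus not particular to replication genes.

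**Figure D4:**
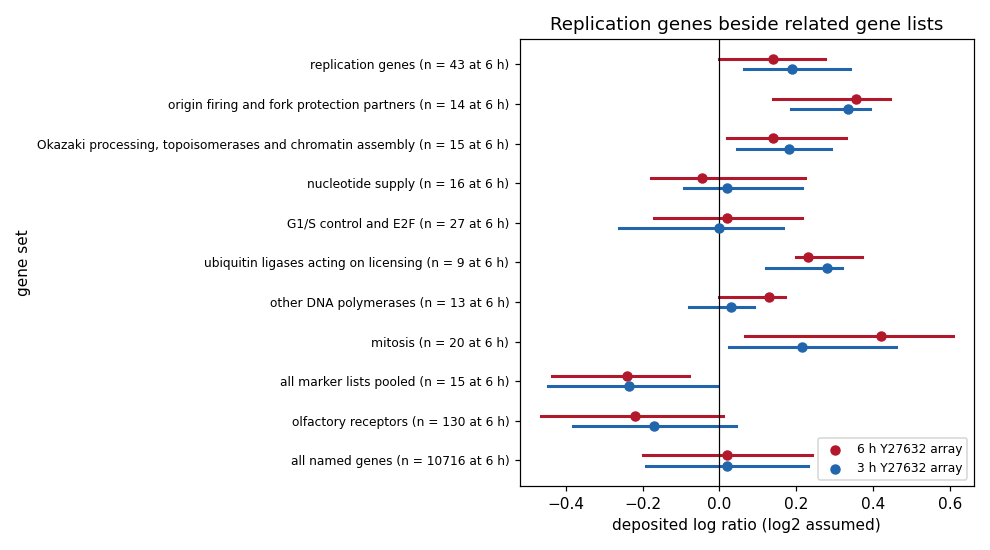
Median (point) and quartiles (line) of the deposited log ratio (x axis, log2 assumed) for the replication genes, the 7 related lists, the pooled cell type markers, olfactory receptors and all named genes (y axis, with the number measured at 6 h), at 6 h (red) and 3 h (blue). The median of the replication genes, 0.14 at 6 h and 0.19 at 3 h, sits right of that of all named genes at 0.02. The medians of the markers and olfactory receptors sit left of 0, and the quartile lines of the olfactory receptors reach past 0.

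The olfactory receptors and the pooled cell type markers had negative medians. Olfactory receptor genes, a family added after the values were seen, had medians of −0.22 at 6 h over 130 genes and −0.17 at 3 h over 152, and 27.7% were positive at 6 h and 29.6% at 3 h. Markers of kidney epithelium, endothelium, fibroblasts and lymphocytes together had medians of −0.24 over 15 genes at 6 h and −0.24 over 16 genes at 3 h, with 3 positive on each array. No spot intensities were used here, and the part of such differences between gene sets in the shift of the replication genes was not tested. Probe origin also moved slightly with the ratio. Genes with only probes of the ID stem H200, as 33 of the 43 members had, had a median of 0.04 at 6 h and of 0.03 at 3 h over all such genes, and those 33 members had 0.14 at 6 h and 0.16 at 3 h.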

How the data were processed

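Expression was compared in 293T cells on 2 dual-colour arrays, 1 per time. The deposited value table held 1 log ratio per probe and array, with 2 decimals, a median of 0 on each array, and 24267 probes, of which 20337 had a value at 6 h and 20503 at 3 h. The values were read as log2, which is assumed because neither the base nor the numerator, background correction, normalization or spot filter is given in the sources used here. The platform annotation named 1 gene for 13395 probes, 0 probes carried several names, and 10872 carried no name. Against the RefSeq table of GRCh38.p14, 10822 names were still in use, 2446 older names led to a single current gene, and 127 that could mean several were left unaltered.

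A gene's value was the mean of its probes. Medians, counts by sign and counts at 1.5-fold were set beside those of all named genes. No test was made, since each time has 1 array, and precision is limited by the number of arrays. The averaging of probes into genes was checked on simulated data in which all members had the same shift on an array. That shift had to come back as their median, and the counts were not checked in this way. The members and lists were chosen with earlier results of these data known. Members past 1.5-fold were to be named with both values, and of each list the 2 highest and 2 lowest at 6 h. Tools were Python 3.11.15, pandas 2.3.3, numpy 2.4.6 and matplotlib 3.10.9.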

Additional observations from a re-analysis of the deposited data

How the results depend on the processing

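In the settings that kept the sign, the median over members lay between 0.10 and 0.14 at 6 h and between 0.15 and 0.19 at 3 h. The mean in place of the median was 0.17 at 6 h and 0.20 at 3 h. With each array's median subtracted, 30 of 43 members were positive at 6 h and 36 at 3 h. With current symbols only, 33 members were left, with medians of 0.10 at 6 h and 0.15 at 3 h, and 23 were positive at 6 h (69.7%) and 28 at 3 h (84.8%). The share over all genes with current symbols was not computed. With H200 probes only, again 33 members, the medians were 0.14 at 6 h and 0.16 at 3 h, and 25 were positive at 6 h (75.8%) and 28 at 3 h (84.8%). Of all genes with only H200 probes, 54% were positive at 6 h and 53.8% at 3 h. The H200 setting and that without the origin recognition genes were chosen after seeing the data. The counts past 1.5-fold were less stable. They came to 0 at both times with a 2-fold size, with current symbols only, which drops the ORC genes, and without the origin recognition genes, against 3 at 6 h and 1 at 3 h as reported. Read as natural logarithms, the table gave 8 positive members past 1.5-fold at 6 h and 7 at 3 h. This cut is lower on the deposited scale, and the share of all named genes past it was not computed. That share was at least 10.7% at 6 h and 11.7% at 3 h, the shares at or above RFC5 (0.45 and 0.41). With the sign turned, the medians were −0.14 at 6 h and −0.19 at 3 h, 11 members were positive at 6 h and 6 at 3 h, 0 lay past 1.5-fold on the positive side at either time, and 3 did at 6 h and 1 at 3 h on the negative side. ORC1 then had −0.62 on both arrays, and ORC4 and ORC6 had −0.65 and −0.59 at 6 h. No paired analysis was possible because each time has 1 array and the labels give no replicate numbers. With no intensities used here, the signal over background that limits each probe is unknown.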

Other observations

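Outside kidney epithelium, the cell type markers gave few values. Kidney epithelial markers had a median of −0.04 at 6 h and of −0.39 at 3 h over 7 genes, with 3 positive at 6 h and 2 at 3 h. AQP1 had 0.41 at 6 h and −0.50 at 3 h, and CDH16 had 0.18 at 6 h and −0.44 at 3 h. LHX1 had −0.45 at 6 h and −0.51 at 3 h, and CDH6 had −0.28 at 6 h and −0.39 at 3 h. EPCAM, named because it lay farthest the other way, had 0.06 at 6 h and 0.63 at 3 h. All 4 measured endothelial markers were negative on both arrays, with medians of −0.48 at 6 h and −0.39 at 3 h, and CDH5 had −0.55 at 6 h and −0.72 at 3 h. Fibroblast markers had medians of −0.21 over 2 genes at 6 h and −0.01 over 3 genes at 3 h, and lymphocyte markers −0.41 at 6 h and −0.03 at 3 h over 2 genes.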
